A study of Oryza sativa with 24 samples.

Results

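On arrays of rice seedlings, 44 probe sets were bright in 3 indica accessions and dim in 4 japonica accessions, or the reverse. The remaining accession of the 8, Lixingeng, was not used to choose them. Its arrays in the cold departed from the japonica pattern at a few. Its array before cold lay between the indica and japonica arrays in the median over these probe sets. The 44 were chosen by their own intensities out of 57258 probe sets that were not controls. A probe set was selected on reading above 200 on all 8 indica arrays and under 80 on all 12 japonica arrays, or above 200 on all 12 japonica arrays and under 80 on all 8 indica arrays. By this rule 6 were higher in indica and 38 were higher in japonica. The probe sets of AOS2, PMEI28 and TPP1 were to be left out of the rule, and 0 of them had met it. Because the rule used the difference between the sets, that difference is described here and not tested.

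Indica and japonica are the main subspecies of Asian cultivated rice. They differ by many sequence changes, by insertions and deletions, and by genes that are present in one and missing in the other, and japonica is in general the more tolerant of cold. A probe set is a group of short probes designed against 1 transcript sequence, so it can read dim where the transcript is scarce, where the gene is missing, or where the accession's sequence does not match the probes. The arrays cannot tell these apart, and the deposited values give 1 summary per probe set and no single probes.

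The indica arrays came from 9311 and ZS97 before cold and after 6 h and 24 h at 4 °C, and from MH63 before cold and after 6 h. The japonica arrays came from IRAT109, Geng87-304, Youmangzaogeng and Muguanuo, each before cold and after 6 h and 24 h at 4 °C. The arrays outside the rule were MH63 after 24 h and Lixingeng before cold, after 6 h and after 24 h. All plants were seedlings at the 4-leaf stage, grown in soil, with shoot and leaf tissue taken for RNA, and each accession gave 1 array per time. The labels name the accessions and not their subspecies, which was taken from the rule. They do not say whether an array held 1 plant or a pool, nor whether accessions were planted apart, so p-values measure only the spread between these arrays.

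Intensities are on the linear scale as deposited, and the median of all probe sets on an array lay between 41.8 and 46.7. Of 6 leaf genes measured, 5 had medians over the 24 arrays of 1990 to 11682, among them genes for rubisco activase (rca) and a chlorophyll-binding protein (CAB2R). The remaining one, RBCS1, had a median of 9.73. The root silicon transporters LSI1 and LSI2, the 2 root markers of 5 that could be measured, read 104 to 445 and 12.7 to 24.9 over all arrays. Among the arrays, MH63 at 24 h and Lixingeng before cold stood apart, as did Muguanuo at 6 h and 24 h to a smaller extent, and their values are given below before the tests.

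**Figure D1:**
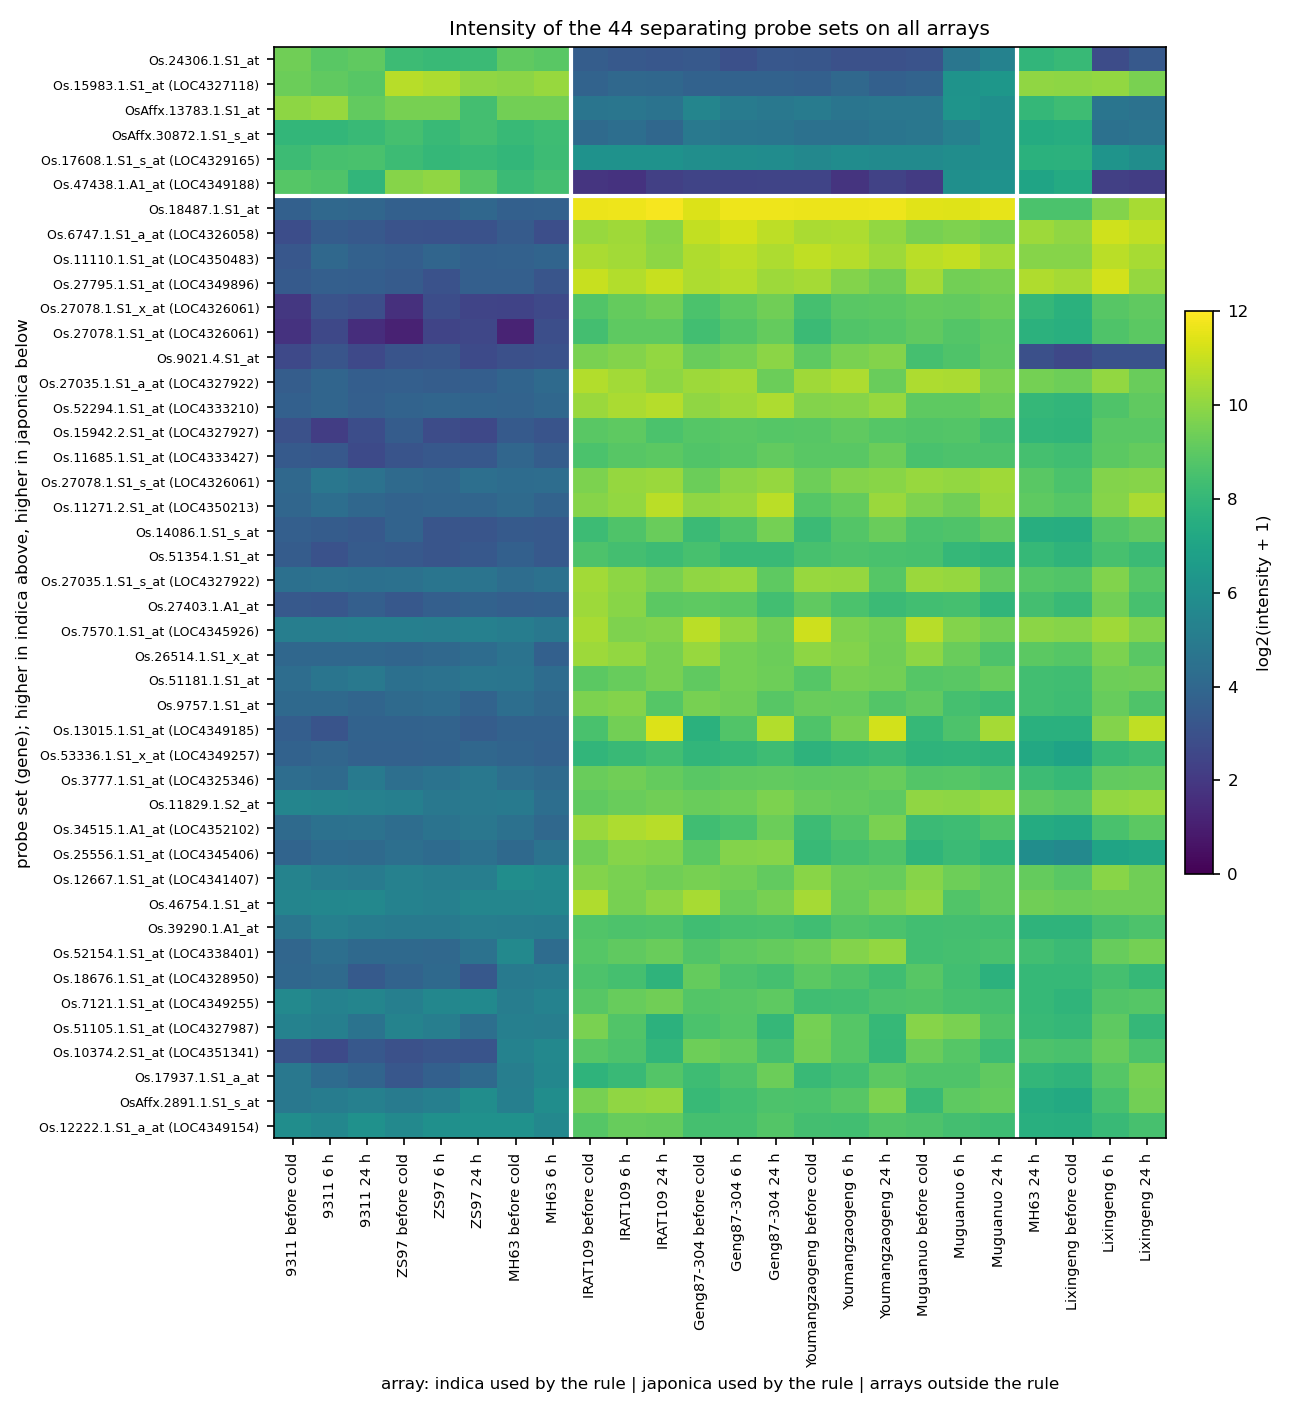
Heat map of log2(intensity + 1) for the 44 probe sets (vertical, with the gene where 1 was annotated) on the 24 arrays (horizontal). White lines part the 8 indica arrays, the 12 japonica arrays and the 4 arrays outside the rule, and the 6 probe sets higher in indica stand above the 38 higher in japonica. MH63 at 24 h and Lixingeng before cold show intermediate colours at most probe sets, and Os.9021.4.S1_at is dark on all 4 arrays outside the rule.

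The 6 probe sets higher in indica had medians of 278 to 1003 over the indica arrays and of 4.29 to 58.2 over the japonica arrays. Os.15983.1.S1_at, for LOC4327118 on chromosome 1, read 625, 529 and 477 in 9311 before cold, at 6 h and at 24 h, 1652, 1488 and 1034 in ZS97 at the same times, and 972 and 1139 in MH63 before cold and at 6 h. On the 12 japonica arrays it read from 11.8 to 79.8 with a median of 13.1. ZS97 was the highest accession for this gene, and the japonica arrays that came nearest were those of Muguanuo after cold.

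Os.47438.1.A1_at, for LOC4349188 on chromosome 10, read 452, 409 and 241 in 9311 before cold, at 6 h and at 24 h, 910, 1023 and 479 in ZS97, and 291 and 344 in MH63. Its japonica values were 2.43 to 69.3 with a median of 4.29. OsAffx.13783.1.S1_at, with no annotated gene, read 335 to 1133 in indica and 22.8 to 72.2 in japonica. Os.24306.1.S1_at, also without a gene, read 279 to 679 in indica and 6.52 to 38.7 in japonica. OsAffx.30872.1.S1_s_at and Os.17608.1.S1_s_at (LOC4329165, chromosome 2) were the dimmest on the indica side, with 242 to 349 and 244 to 370 against 14.9 to 62.5 and 48.1 to 69.3 on the japonica arrays.

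The 38 probe sets higher in japonica had medians of 3.45 to 61.4 over the indica arrays and of 247 to 3221 over the japonica arrays. The brightest was Os.18487.1.S1_at, which has no annotated gene: it read 11.8 to 15.5 on the 8 indica arrays and 2632 to 3616 on the 12 japonica arrays. For 30 of the 44 members the dim side stayed under the lowest array median of 41.8 on every array, so a fold between the sets would rest on values near background and none is given for single members. Other bright ones were Os.6747.1.S1_a_at (LOC4326058, chromosome 1), at 6.15 to 10.3 in indica and 698 to 2400 in japonica, and Os.11110.1.S1_at (LOC4350483, chromosome 11), at 8.70 to 15.6 and 986 to 1888.

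Only 1 of the member genes had a name other than a locus number. This was LOC4349896 on chromosome 11, BURP17 or RDB1, of the BURP family of plant proteins named after a domain that its members share. Its probe set Os.27795.1.S1_at read 9.71, 11.6 and 10.9 in 9311 before cold, at 6 h and at 24 h, 9.73, 7.08 and 11.2 in ZS97, and 11.3 and 8.06 in MH63. It read 2021, 1580 and 2058 in IRAT109, 1466, 1598 and 1212 in Geng87-304, 1345, 883 and 675 in Youmangzaogeng, and 1335, 696 and 739 in Muguanuo. No array of one set came near the other. IRAT109 held the highest japonica values.

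Of the 44 probe sets, 28 had 1 annotated gene and 16 had none. The 28 covered 25 genes, 3 on the indica side and 22 on the japonica side, spread over 9 chromosomes with 6 on chromosome 1 and 5 on chromosome 10. LOC4326061 was represented by 3 member probe sets and LOC4327922 by 2, so members are not independent of each other. Probe sets of the OsAffx kind, designed from predicted genes, made up 6.82% of the members and 44.5% of all probe sets, while those shared within a transcript family (_a_at) made up 9.09% and 2.46%, and those shared between transcripts (_s_at) 13.6% and 4.94%. The rule asked for above 200 on every array of a set, which 7102 probe sets met in indica and 6917 in japonica. Shares among such bright probe sets are not given, so these differences are not read as a trait of the members.

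Intensities ran on without a break across the thresholds. On the indica side the members closest to a threshold were Os.15983.1.S1_at, with a highest japonica array of 79.8, OsAffx.13783.1.S1_at, with 72.2, and Os.47438.1.A1_at, with 69.3. Just outside were Os.48434.1.A1_at (LOC4327323), whose lowest indica array read 195, OsAffx.28164.1.S1_at, with 190 and a highest japonica array of 84.7, and Os.18503.1.S1_s_at (LOC4346960), with 184. On the japonica side Os.13015.1.S1_at (LOC4349185), Os.18676.1.S1_at (LOC4328950) and Os.51105.1.S1_at (LOC4327987) were just inside, with lowest japonica arrays of 204, 207 and 210. Just outside were Os.18069.1.S1_at, whose lowest japonica array read 199.7, and Os.35028.2.S1_x_at and Os.12620.1.S1_at, whose highest indica arrays read 82.9 and 83.5.

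For comparison, every indica array lay above every japonica array for 1.2% of all probe sets and every japonica array above every indica array for 1.96%. A limma test of indica minus japonica over accession means called 1.33% higher and 2.06% lower in indica. Both measures come from the contrast that chose the members, so nothing about the members is read from them.

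Lixingeng, which the rule did not use, read as japonica at nearly all members once in the cold. At 6 h and 24 h, 36 of the 38 probe sets higher in japonica were above 200 in Lixingeng at both times, and 5 of the 6 higher in indica were under 80 at both times. The exceptions were large. Os.15983.1.S1_at (LOC4327118) read 1069 and 767 in Lixingeng at 6 h and 24 h, within the range of the indica arrays. Os.9021.4.S1_at, with no annotated gene, read 7.18 at both times, against 5.19 to 8.17 on the indica arrays and 356 to 1074 on the japonica arrays. Lixingeng thus carried the indica reading at these 2 of 44 members.

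Another pair of members read between the sets in Lixingeng. Os.25556.1.S1_at (LOC4345406, chromosome 8) read 127 and 144 at 6 h and 24 h in Lixingeng, against 13.5 to 22.7 on indica and 232 to 907 on japonica arrays. Os.18487.1.S1_at read 875 and 1383, below each of the 12 japonica arrays. In all, 3 of the 38 were below the japonica range at both cold times and 0 were above it.

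MH63 at 24 h and Lixingeng before cold lay between the sets in the median over members. A linear position was computed for each array and probe set, with 0 at the mean of the japonica arrays and 1 at the mean of the indica arrays. Over the 6 members higher in indica the median position was 0.53 for MH63 at 24 h and 0.58 for Lixingeng before cold. Over the 38 higher in japonica it was 0.45 and 0.50. The lowest of the 8 indica arrays had 0.85 and the highest of the 12 japonica arrays, Muguanuo at 24 h, had 0.25 in these medians. On log2(intensity + 32) the median over all 44 was 0.23 for MH63 at 24 h and 0.26 for Lixingeng before cold, with the same arrays between the sets.

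**Figure D2:**
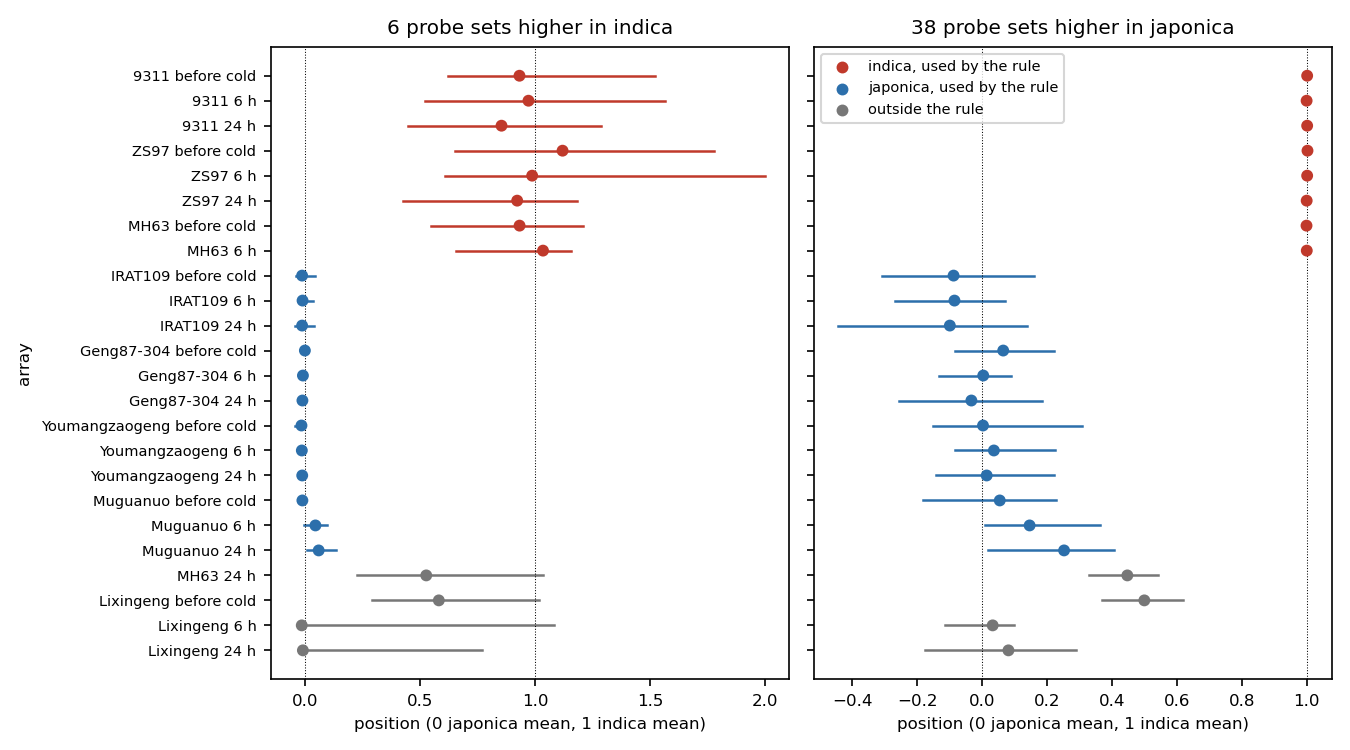
Position of each of the 24 arrays (vertical) between the japonica mean (0) and the indica mean (1) of linear intensity. Points are medians over the 6 probe sets higher in indica (left, lines from lowest to highest) or the 38 higher in japonica (right, lines over the middle 50%). MH63 at 24 h and Lixingeng before cold lie at 0.45 to 0.58, and Muguanuo at 6 h and 24 h lies at 0.15 and 0.25 on the right.

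The members at which Lixingeng departs from the japonica arrays were set beside these midway arrays. Clean MH63 arrays (before cold and 6 h) and Lixingeng arrays (6 h and 24 h) were more than 3-fold apart at 42 of the 44 members. Over those 42, MH63 at 24 h lay a median 54.0% of the way to Lixingeng (13.8% to 98.8%), and Lixingeng before cold a median 48.5% (13.5% to 92.4%). Of the 42, 34 on the MH63 array and 39 on the Lixingeng array lay strictly between the arrays of both accessions. Of the 38 higher in japonica, 30 on the MH63 array and 29 on the Lixingeng array were above 200. Some high members lay within the japonica range, such as Os.7570.1.S1_at (LOC4345926) at 974 in MH63 at 24 h, against 684 to 2165 on the japonica arrays. At the remaining 2, where both accessions read alike, the midway arrays read like them. Os.15983.1.S1_at was 1021 in MH63 at 24 h and 1005 in Lixingeng before cold. Os.9021.4.S1_at was 6.54 and 5.11, although it was at least 356 in the 4 japonica accessions of the rule.

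The 2 midway arrays also resembled each other, although their labels give different accessions and times. MH63 at 24 h over Lixingeng before cold was a ratio of 0.79 to 1.28 with a median of 1.08, so that 44 of 44 members agreed within 1.5-fold. The share of all probe sets that agreed within 1.5-fold between these arrays is not given. Between 24 h and before cold in 1 accession, over the 38 members higher in japonica, 21 agreed within 1.5-fold in IRAT109, 18 in Geng87-304, 17 in Youmangzaogeng and 23 in Muguanuo. LOC4349185, which differed most between times, shows this: Os.13015.1.S1_at read 198 in MH63 at 24 h and 194 in Lixingeng before cold. It read 1356 to 2620 in the 4 japonica accessions at 24 h and 204 to 409 before cold. Whether either array held RNA of more than the accession on its label was not tested, so its values may not stand for that accession and time. Neither array entered the rule or the tests that follow.

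Muguanuo gave a weak indica signal on its cold arrays. Before cold, its 6 probe sets higher in indica read 3.22 to 52.4, in the range of the other japonica arrays. At 6 h and at 24 h, 5 of the 6 were above all 10 other japonica arrays. Os.47438.1.A1_at (LOC4349188) read 3.22, 62.1 and 69.3 in Muguanuo before cold, at 6 h and at 24 h, against 2.43 to 4.46 on the 10 others. Os.15983.1.S1_at (LOC4327118) read 13.2, 70.9 and 79.8, against 11.8 to 15.8. Os.24306.1.S1_at read 7.32, 24.9 and 38.7, against 6.52 to 10.5. Os.17608.1.S1_s_at was the exception, with 58.3 and 61.6 at 6 h and 24 h, inside the 48.1 to 69.3 of the others.

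The rule capped this signal, since it asked for under 80 on the Muguanuo arrays too. Without Muguanuo at 6 h and 24 h the rule would have given 11 members on the indica side and 45 on the japonica side. Over those 11, Muguanuo's signal as a share of the indica mean above the 10 other japonica arrays was a median 6.25% at 6 h (-0.28% to 14.9%) and 13.9% at 24 h (1.09% to 21.9%). Over the 6 members alone the medians were 5.86% and 6.84%. The 5 added on the indica side included Os.17076.1.S1_at (LOC4346594), at 418 to 3330 in indica, 183 and 282 in Muguanuo at 6 h and 24 h, and 9.07 to 21.2 on the 10 other japonica arrays. Lixingeng was raised at Os.17076.1.S1_at too, at 67.7 and 135.5 at 6 h and 24 h, so this reading was not particular to Muguanuo. The 5 also included Os.9825.1.S1_at (LOC4333210), at 3312 to 4121 in indica, 297 and 727 in Muguanuo, and 19.4 to 29.0 on the others. There Lixingeng read 21.4 and 22.1 at 6 h and 24 h, within the range of those others. Whether the 2 Muguanuo arrays held RNA of another accession was not tested. They stay in the rule and the fits, and the counts below are given with and without them.

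Other probe sets for the member genes gave values that the rule had not used. Some carry the identifier number of their member, such as Os.18676.1.S1_x_at, on the same side, and Os.51105.1.S1_s_at, which overlapped. These may share probes with the member, which could not be checked, so their agreement is not an independent view. Of the 25 genes, 14 had a total of 23 other probe sets. Of these, 11 showed the same side as the member with no overlap between the sets, 7 overlapped and 5 showed the opposite side with no overlap. Over all probe sets, indica lay above japonica with no overlap for 1.2% and japonica above indica for 1.96%. For 7 of the 14 genes every other probe set was on the member's side, and for 4 genes at least 1 was on the opposite side. Of the opposite ones, Os.27035.3.S1_at (LOC4327922) and Os.50196.2.S1_at (LOC4345926) were dim, at most 30.5 and 48.9 on these arrays. On the member's side Os.45017.1.S1_at also stayed under 200, at most 123. Os.13590.1.S1_at and Os.13590.1.S1_x_at, both opposite, belong to the same gene, LOC4341407.

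LOC4327927 on chromosome 1 was a gene with agreement. Its member Os.15942.2.S1_at read 3.46 to 10.4 in indica and 338 to 537 in japonica. Its 2 other probe sets read 106 to 130 and 115 to 165 in indica, against 798 to 1185 and 614 to 941 in japonica. No array of one set reached the other in either of them. The first, Os.15942.2.S1_a_at, carries the member's identifier number and may share probes with it. LOC4349255 on chromosome 10 gave 32.9 to 50.2 and 324 to 673 for its member and 85.7 to 151 and 556 to 1060 for OsAffx.1887.1.S1_x_at.

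LOC4333210 on chromosome 3 gave opposite readings. Its member Os.52294.1.S1_at read 11.2 to 15.2 in indica and 514 to 1641 in japonica. Os.47722.1.S1_at and Os.45017.1.S1_at were on the same side, with 151 to 289 and 8.99 to 15.6 in indica against 485 to 1009 and 62.4 to 123 in japonica. Os.9825.1.S1_at, given above, was bright in indica and dim on the 10 japonica arrays other than Muguanuo at 6 h and 24 h. LOC4341407 on chromosome 6 also gave opposite readings. Its member Os.12667.1.S1_at read 30.6 to 57.8 in indica and 544 to 927 in japonica, while Os.13590.1.S1_at read 404 to 861 and 165 to 241. For LOC4327987 on chromosome 2, Os.51105.1.S1_s_at overlapped, at 104 to 493 in indica and 130 to 428 in japonica, although its member read 19.6 to 40.9 and 210 to 892. RNA level and probe match cannot be told apart in these readings.

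**Figure D3:**
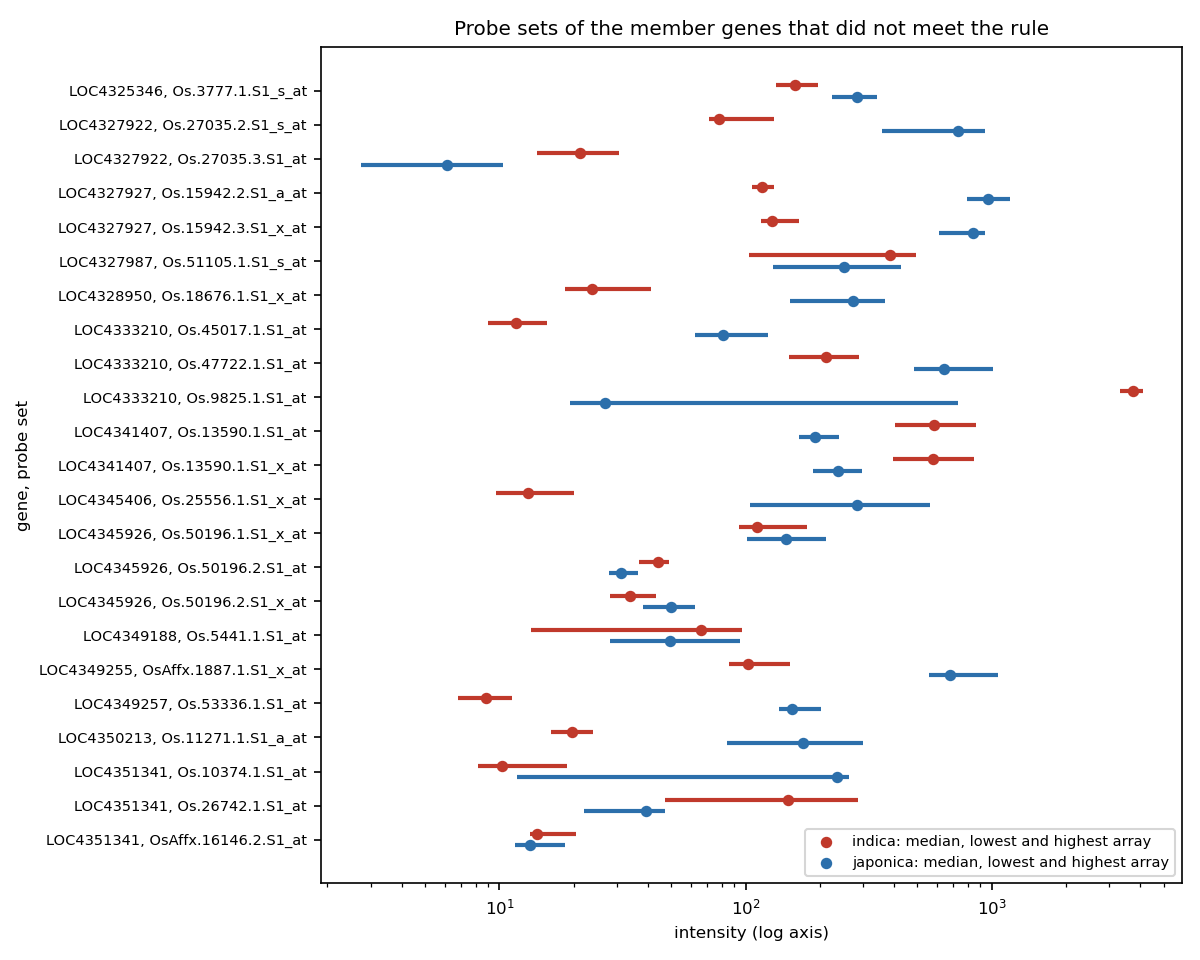
Intensity (log axis) of the 23 other probe sets of 14 member genes, with indica (8 arrays) above japonica (12 arrays) for each. Points are medians and lines run from the lowest to the highest array. LOC4333210 has probe sets on both sides, and Os.13590.1.S1_at of LOC4341407 is higher in indica although the member probe set of that gene is higher in japonica.

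Some member genes lay near each other on the chromosome. In the gene order of RefSeq, 4 pairs of member genes stood at most 12 gene positions apart. These were LOC4327922 and LOC4327927, and LOC4326058 and LOC4326061, on chromosome 1, and LOC4349185 and LOC4349188, and LOC4349255 and LOC4349257, on chromosome 10. In 3 of the 4 pairs both genes were higher in japonica, but so were 22 of all 25 member genes. How often other genes lie this near each other is not given, so nothing about neighbours is read from these counts. Only 3 of the genes between them had a probe set of their own, and 1 of these did not overlap between the sets. It was Os.46812.1.S1_at for LOC4349186, between LOC4349185 and LOC4349188, which was dim throughout at 10.5 to 23.7 in indica and 24.2 to 35.0 in japonica.

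The pair LOC4349185 and LOC4349188 was on opposite sides, with 1 gene between. Os.13015.1.S1_at (LOC4349185) read 7.74 to 13.1 on the indica arrays. In japonica before cold, at 6 h and at 24 h it read 372, 696 and 2620 in IRAT109, 204, 427 and 1595 in Geng87-304, 409, 742 and 2312 in Youmangzaogeng, and 261, 400 and 1356 in Muguanuo. It was higher at 24 h than before cold in 4 of 4 japonica accessions. LOC4349188, bright in indica, dropped below its level before cold by 24 h in both indica accessions with a clean 24 h array, as its values above show. The other probe set of LOC4349188, Os.5441.1.S1_at, overlapped, with 13.4 to 97.0 in indica and 28.2 to 94.7 in japonica.

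**Figure D4:**
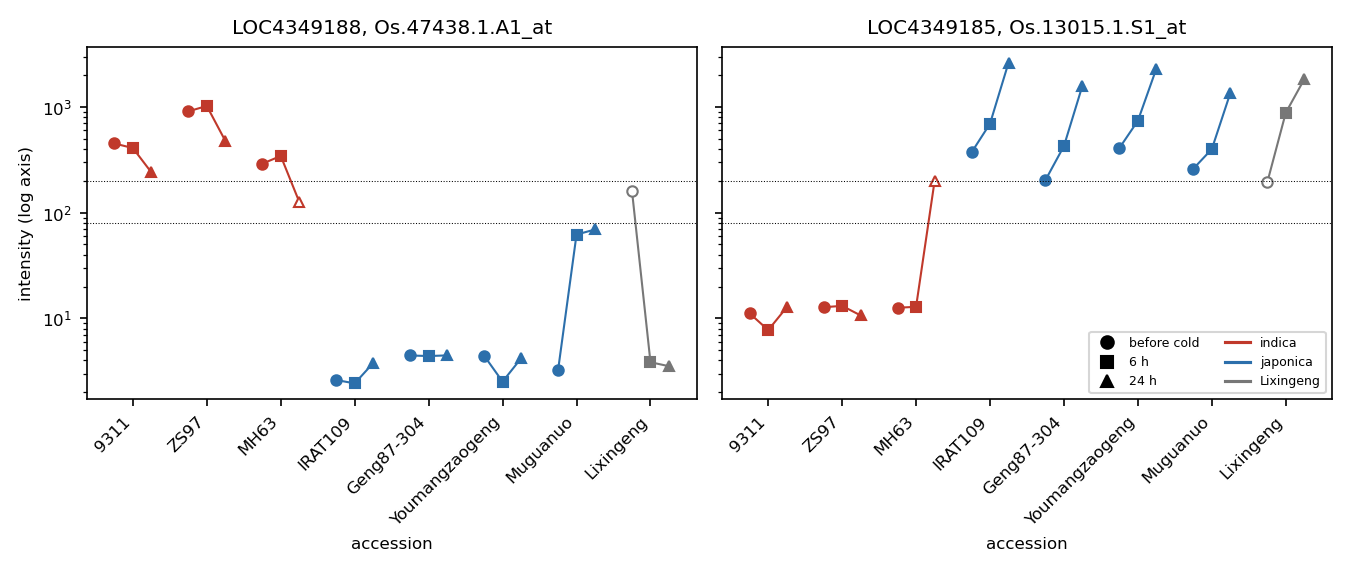
Intensity (log axis) of Os.47438.1.A1_at (LOC4349188, left) and Os.13015.1.S1_at (LOC4349185, right) in the 8 accessions before cold (circles), at 6 h (squares) and at 24 h (triangles). Dotted lines mark 200 and 80, and open symbols are the 2 midway arrays. LOC4349185 reaches 1356 to 2620 at 24 h in the japonica accessions and stays at 7.74 to 13.1 on the clean indica arrays.

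Cold changed many of the 38 probe sets in the japonica accessions in which they were bright. At 6 h, 8 were higher and 6 lower than before cold, and 24 did not pass (limma, Benjamini-Hochberg adjusted p under 0.05, 4 accessions). At 24 h, 16 were higher, 15 lower and 7 did not pass. All 14 called at 6 h were called in the same direction at 24 h. Among all probe sets, 3.22% were called higher and 6.76% lower at 6 h, and 13.2% higher and 18.3% lower at 24 h. Bright probe sets are called more often: of the 6917 above 200 on every japonica array, 5.25% were higher and 8.62% lower at 6 h, and 21.5% higher and 31.8% lower at 24 h. The shares of the 38 were 21.1% higher and 15.8% lower at 6 h, and 42.1% and 39.5% at 24 h, each above the share of bright probe sets, with several members from 1 gene among them. The median log2 change of the 38 was 0.10 at 6 h and 0.15 at 24 h, against -0.01 and -0.01 over all probe sets.

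Without Muguanuo at 6 h and 24 h the counts called in japonica were 11 at 6 h and 30 at 24 h. The 11 were 8 higher and 3 lower, so fewer were called lower at 6 h. The 30 were 17 higher and 13 lower. Without accession as a block the counts were 3 and 20, and without Youmangzaogeng the 6 h count was 9.

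LOC4349185 had the largest change of the 38. Its log2 change was 0.80 at 6 h (SE 0.08, adjusted p = 1.02e-05 in limma, higher in 4 of 4 accessions) and 2.54 at 24 h (SE 0.08, adjusted p = 1.02e-11, higher in 4 of 4), or 5.82-fold. The changes at 24 h ran from 2.25 in Muguanuo to 2.79 in Geng87-304. Next among the higher ones was Os.14086.1.S1_s_at, with no annotated gene, which read 294, 411 and 611 in IRAT109 before cold, at 6 h and at 24 h, 290, 418 and 714 in Geng87-304, 286, 437 and 611 in Youmangzaogeng, and 389, 411 and 530 in Muguanuo. All 4 accessions were higher at 24 h than before cold, 1.88-fold in the fit.

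LOC4352102 on chromosome 12, annotated as a miscellaneous RNA gene, had Os.34515.1.A1_at at 1162, 1458 and 1674 in IRAT109, 323, 382 and 637 in Geng87-304, 294, 441 and 778 in Youmangzaogeng, and 290, 306 and 420 in Muguanuo. Its change at 24 h was 1.75-fold, and it did not pass at 6 h (adjusted p = 0.130 in limma). The IRAT109 arrays stood above all others at each time. The 3 probe sets of LOC4326061 rose together at 24 h, by 1.38-fold to 1.41-fold.

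The largest decrease at 24 h was in LOC4345926 on chromosome 8. Os.7570.1.S1_at read 1379, 807 and 867 in IRAT109 before cold, at 6 h and at 24 h, 1747, 1028 and 684 in Geng87-304, 2165, 823 and 707 in Youmangzaogeng, and 1700, 866 and 703 in Muguanuo. All 4 accessions were lower at both times, with log2 changes of -0.95 at 6 h (SE 0.12) and -1.19 at 24 h. Its 3 other probe sets did not show this side, as 2 overlapped between the sets and 1 was higher in indica at 36.8 to 48.9 against 27.8 to 36.5.

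Os.46754.1.S1_at, with no annotated gene, fell by 1.13 at 6 h and by 0.78 at 24 h on the log2 scale. It read 1534, 738 and 967 in IRAT109, 1370, 613 and 733 in Geng87-304, 1341, 592 and 813 in Youmangzaogeng, and 1040, 425 and 537 in Muguanuo. In each accession the 6 h array was the lowest of the 3. Os.51105.1.S1_at (LOC4327987) fell by 1.17 at 24 h and Os.10374.2.S1_at (LOC4351341, chromosome 12) by 1.01. Both probe sets of LOC4327922 fell at 24 h, 1.81-fold and 1.99-fold. BURP17 was 1.42-fold lower at 24 h in the fit (log2 change -0.51), but not in IRAT109, where its log2 change was 0.03. Its call was lost in limma in 5 of 14 alternatives. Among these were the fits without Muguanuo (adjusted p = 0.079 in limma) and without Youmangzaogeng (adjusted p = 0.133).

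**Figure D5:**
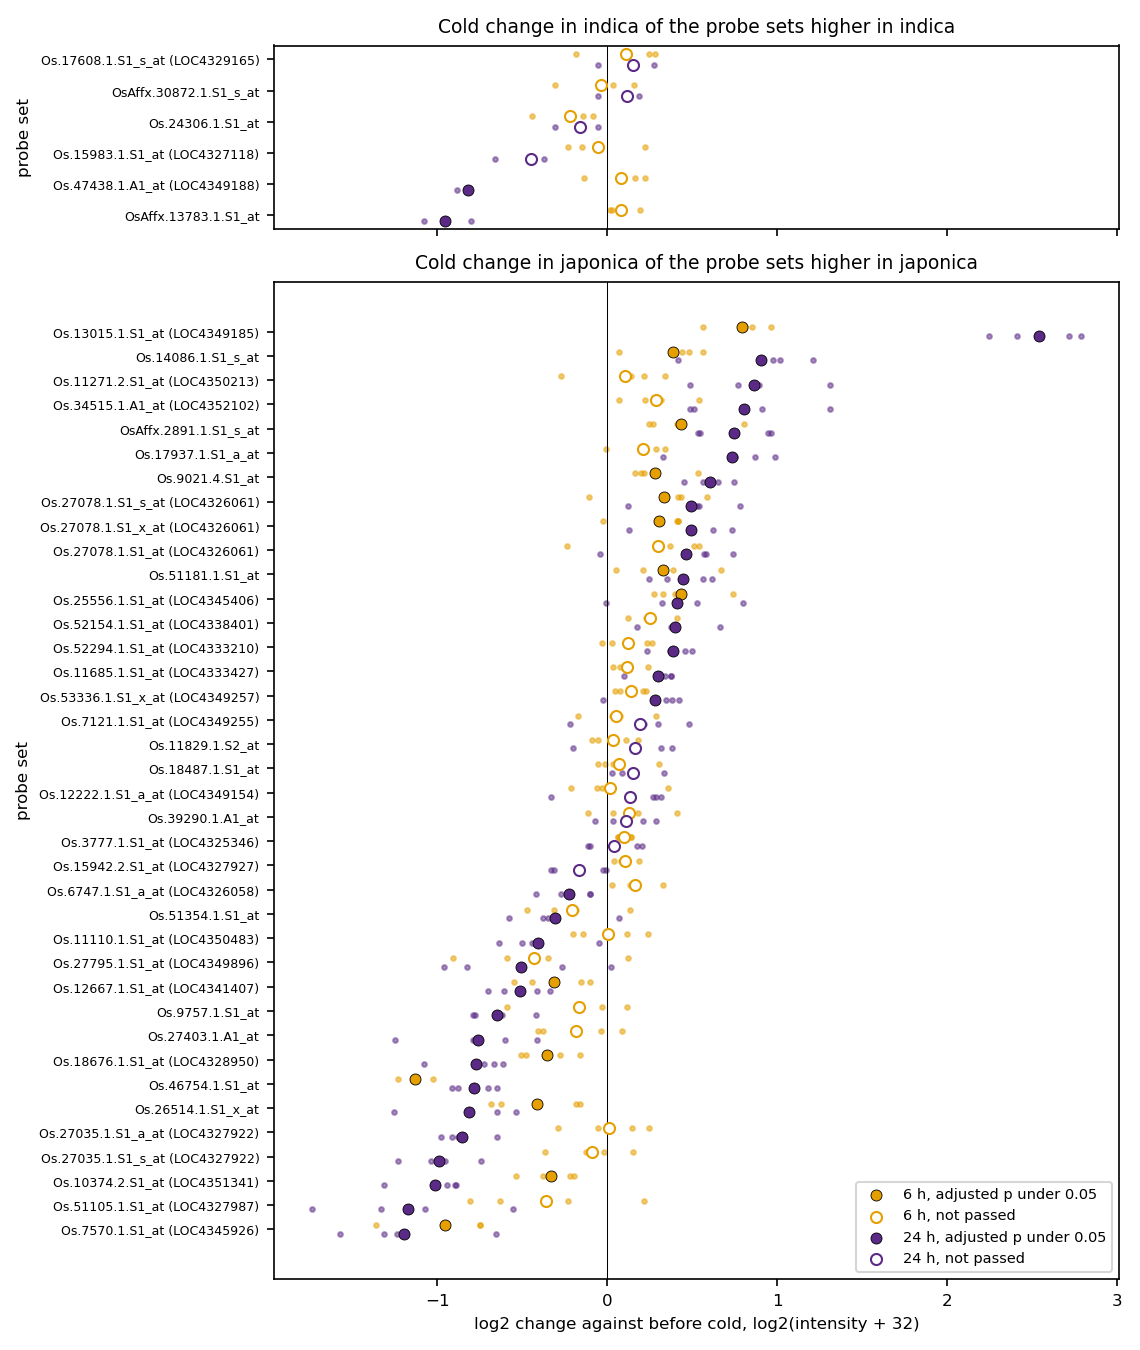
Log2 change against before cold, on log2(intensity + 32), of the 6 probe sets higher in indica in the indica accessions (top) and of the 38 higher in japonica in the japonica accessions (bottom). Large symbols are fitted changes at 6 h (orange) and 24 h (purple), filled where limma's adjusted p was under 0.05, and small points are single accessions. Os.13015.1.S1_at stands alone at 2.54, and the calls at 24 h fall on both sides of 0, with 16 higher and 15 lower in japonica.

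In indica, 2 of the 6 bright probe sets were called lower in the cold, both at 24 h, and 1 of the calls held in few alternatives. At 6 h, limma called 0 of them over 3 accessions, and 0 had an unadjusted p under 0.05. At 24 h it called 0 higher and 2 lower over 2 accessions, and both were lower in 2 of 2. OsAffx.13783.1.S1_at had a log2 change of -0.95 (SE 0.18, adjusted p = 0.00139), a call lost in 3 of 14 alternatives. LOC4349188 had -0.82 (SE 0.27, adjusted p = 0.0453), a call lost in 11 of 14 alternatives, with limma's adjusted p at 0.051 to 0.745 there and changes of -0.91 to -0.50 over all 14. Without Muguanuo at 6 h and 24 h its change was the same and its adjusted p in limma was 1.49e-05. The indica arrays were the same in that fit, and the spread was pooled with the japonica arrays, which the rule kept under 80. The lower p therefore adds nothing on the indica change, which rests on 2 accessions. Among all probe sets in indica, 1.73% were higher and 5.11% lower at 6 h, and 6.99% higher and 11.9% lower at 24 h. Of the 7102 above 200 on every indica array, 2.49% were called higher and 7.45% lower at 6 h. At 24 h these shares were 10.3% and 22.5%, while 2 of 6 is 33.3%. The spread of these 6 was pooled with japonica arrays that the rule kept under 80, so no excess is read from this share.

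The 24 h count in indica was fragile: it was 0 without ZS97, 0 without accession as a block and 3 without Muguanuo at 6 h and 24 h. Whether the cold changes differed between indica and japonica was not tested.

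On the dim side limma called 0 of the 38 in indica and 0 of the 6 in japonica at 6 h and at 24 h. At an unadjusted p under 0.05 there were 2 in indica at 24 h and 0 in the other 3 contrasts. The rule kept every cold array of the dim side under 80, so these counts say nothing of how such genes respond to cold.

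Accessions of the same set differed in how bright their shared probe sets were. Within japonica, 28 of the 38 (73.7%) passed limma's F test among the 4 accessions (adjusted p under 0.05), against 38.6% of all probe sets and 53.3% of those above 200 on every japonica array. The brightest accession was 1.08 to 4.23 times the dimmest, with a median of 1.44. Over the 3 times, Muguanuo was the dimmest for 21 of the 38 and IRAT109 the brightest for 19. On the arrays before cold alone these counts were 14 and 19, and without Muguanuo at 6 h and 24 h they were 18 and 14. How often each accession was dimmest or brightest over all probe sets is not given. The Muguanuo arrays also had the lowest medians of all arrays, at 41.8 to 42.7. The counts are therefore not read as a trait of the members. Without Muguanuo the count that passed was 19, and without its 2 cold arrays it was 23. Within indica, 5 of the 6 passed among the 3 accessions, and 0 passed without ZS97. This compares with 22.4% of all probe sets and 35.6% of those above 200 on every indica array. The F test in both sets also used a spread pooled over both, and the rule kept the dim side of each member under 80. No excess over bright probe sets is therefore read from the shares that passed.

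The widest spread within japonica was that of LOC4352102, at a mean ratio of 4.23 between IRAT109 and Muguanuo (adjusted p = 4.04e-08 in limma). LOC4345406 followed: Os.25556.1.S1_at read 669, 895 and 847 in IRAT109 before cold, at 6 h and at 24 h, 507, 870 and 907 in Geng87-304, 273, 351 and 409 in Youmangzaogeng, and 233, 289 and 232 in Muguanuo. The arrays of IRAT109 and Geng87-304 lay above all those of the other 2. OsAffx.2891.1.S1_s_at was 2.86 times as bright in IRAT109 as in Geng87-304. At the other end, Os.14086.1.S1_s_at differed by 1.08 times between accessions and did not pass (adjusted p = 0.920). Within indica the widest were LOC4349188, 3.05 times as bright in ZS97 as in MH63, and LOC4327118, 2.72 times as bright in ZS97 as in 9311.

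No gene passed the test in a list of genes known to differ between the subspecies in sequence or effect. The list held 30 genes, of which 9 could be measured, since 18 were not in the gene tables used here, 2 were ambiguous and 1 had no probe set. The 9 were MYBS3, a transcription factor of sugar and cold responses, the nitrate reductase gene NIA1, the starch synthase genes WAXY and SSIIA, the semi-dwarf gene SD1, the flowering-time genes HD1 and GHD8, the stay-green gene SGR and the sodium transporter gene HKT1;5. In limma on accession means, 3 indica minus 4 japonica, 0 passed in either direction and 2 had an unadjusted p under 0.05. These 2, named after their values were seen, were NIA1 (log2 difference 0.33, adjusted p = 0.224) and HKT1;5 (-0.18, adjusted p = 0.148). All 9 overlapped between the sets, and their median log2 difference was 0.05, against 0.03 over all probe sets. Only 4 of the 9 passed 200 on any array.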

How the data were processed

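The deposited table held probe set intensity on a linear scale, made by the authors with software and scaling not given in the sources used here. RNA was isolated with TRIzol and labelled with biotin, per the labels. Of 57381 probe sets, 123 controls were left out. The labels gave accession and time. The members and gene lists were chosen with earlier results of these data known.

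Tests used lmFit and a trended eBayes of limma 3.58.1, under R 4.3.3, on log2(intensity + 32) over 57258 probe sets and the 20 arrays of the rule, with accession as a fixed block, time terms of their own for each set, Benjamini-Hochberg adjustment over all probe sets and a threshold of 0.05. Folds on this scale understate changes of dim probe sets. Labels give each accession every time. Deviations from group means of 19 pairs of arrays of 1 accession correlated at 0.57 to 0.87. The fit was tested on simulated data. The array's annotation paired 22436 probe sets with 1 gene, 95 with several and 34727 with none here. RefSeq gene tables served for names and gene order only. They held no descriptions, so planned keyword classes were not used, and leaf markers were matched by symbol after the tables were seen.

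Named were members with a gene symbol, the 5 per direction with the highest ratio of the lowest bright to the highest dim array, the 3 nearest the thresholds inside and outside, the 5 largest cold changes, and the 3 widest and 3 narrowest accession ranges. Further members named for their neighbours, other probe sets or readings in Lixingeng and Muguanuo were chosen after their values were seen. Alternatives were other thresholds, offsets, scalings, a filter on dim probe sets, accessions left out, no block, and other arrays. Leaving out Muguanuo at 6 h and 24 h, splitting the position by direction, and ranking accessions before cold alone, were added after seeing the data. Python 3.11.15 with pandas 2.3.3 and numpy 2.4.6 made the tables.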

Additional observations from a re-analysis of the deposited data

Results flagged for a closer look

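Among the 4 japonica accessions, 132 sets of 4 values (44 probe sets at 3 times) were examined for 1 array far from the other 3, and 18 met the criterion. The criterion is meant to be met by about 1 in 20 sets of independent values. These 132 sets repeat the same accessions and some genes, and no share over all probe sets is given, so no excess is read from the count. For probe sets higher in indica, all 8 cases were Muguanuo arrays above the rest. At 6 h these were Os.15983.1.S1_at (70.9), Os.24306.1.S1_at (24.9), Os.47438.1.A1_at (62.1) and OsAffx.13783.1.S1_at (72.2). At 24 h they were the same 4, at 79.8, 38.7, 69.3 and 61.9.

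For probe sets higher in japonica, 6 cases were IRAT109 arrays. Before cold, Os.34515.1.A1_at read 1162, Os.39290.1.A1_at 432.5 and Os.51354.1.S1_at 395. At 6 h, Os.12222.1.S1_a_at read 590.0 and Os.34515.1.A1_at 1458, and at 24 h Os.7570.1.S1_at read 867. The remaining 4 were Muguanuo arrays. Before cold, Os.11829.1.S2_at read 1039 and Os.14086.1.S1_s_at 389, at 6 h Os.51105.1.S1_at read 758, and at 24 h Os.3777.1.S1_at read 404.5.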

How the results depend on the processing

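The number of members depended on the thresholds. At 150 and 100 the rule gave 13 higher in indica and 74 higher in japonica, and at 400 and 60 it gave 0 and 16. With 1 probe set per gene it gave 3 and 22. Leaving out 1 accession gave 6 to 13 and 40 to 59, highest on both sides without Muguanuo, and 12 and 57 without ZS97 and 59 on the japonica side without IRAT109. Without Muguanuo at 6 h and 24 h, an alternative added after seeing the data, the indica side had 11. Scaling to equal medians or quantiles, and adding Lixingeng at 6 h and 24 h, moved both counts by less than 1.5 times.

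Cold calls rested on the pairing by accession. With no replicate block the 24 h count in indica was 0, and the counts in japonica were 3 at 6 h and 20 at 24 h. With all 24 arrays, which brings in the 2 midway arrays, they were 0, 2 and 9, and the accession calls were 1 in indica and 7 in japonica. The 24 h count in indica was 1 with equal medians, with quantile normalization and with an offset of 16, which gave 3 for accession calls in indica. Over single accessions left out it ran from 0 to 3, the 6 h count in japonica from 9 to 13, and the accession calls from 0 to 5 in indica and 19 to 29 in japonica. The cause of these shifts was not tested. For named members, 317 of 378 cold changes kept direction and call, 61 kept direction and lost the call, and 0 reversed. The listed genes gave 0 calls under all 14 alternatives.

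On log2(intensity + 32) the median position over all members was 0.23 for MH63 at 24 h and 0.26 for Lixingeng before cold, against 0.46 and 0.52 on linear intensity. Over members higher in indica alone it was 0.73 and 0.76 on the log2 scale, chosen after seeing the data. One array per accession and time limits every test, and values near the median of an array, 41.8 to 46.7, are dim.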
